A study of Mus musculus with 2 samples.

Results

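Mc4r, Ntsr1, Calcr, Avpr1a, Grpr and Brs3 encode 6 G protein-coupled receptors for peptides, and they were taken by name from the 500 genes of a MERFISH panel. In MERFISH, each RNA molecule in a tissue section is recognised by the series of fluorescent signals it gives in successive imaging rounds. The question addressed here was which neuronal types and regions of the E16.5 mouse brain held each receptor, at what level over the 50 blank barcodes, which are assigned to no gene and so count decoding errors, and how these levels compared between genotypes. The data comprised 1 coronal section of 10 µm from a control brain (Sst-Cre/tdTomato) and 1 from a knockout brain (KO, Sst-Cre/tdTomato/Dnmt1 loxP2). Both genotypes carried Cre recombinase under the control of Sst, the gene of the neuropeptide somatostatin, together with a tdTomato reporter. In the KO, Cre deletes the loxP-flanked part of Dnmt1, a DNA methyltransferase gene, in cells that express Sst. Deletion is therefore limited to cells that express or have expressed Sst. The panel did not include Dnmt1, and the genotype labels could therefore not be checked. Whole heads had been frozen, and both sections also held tissue outside the brain.

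Peptide receptors respond to signals that neurons and endocrine cells release in addition to fast transmitters. Mc4r encodes the melanocortin receptor that binds peptides cut from the Pomc product and is blocked by the Agrp product, and it is known for its role in energy balance. Ntsr1 encodes the high-affinity receptor for neurotensin and is widely used as a marker of corticothalamic neurons of cortical layer VI. Calcr encodes the calcitonin receptor, which becomes an amylin receptor when it pairs with receptor activity-modifying proteins such as that of Ramp3. Avpr1a encodes the V1a vasopressin receptor, known for its part in social behaviour. Grpr and Brs3 belong to the bombesin receptor family. Grpr binds gastrin-releasing peptide, whereas no natural ligand of high affinity is known for the mammalian product of Brs3.

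The genes lie at distinct places in the genome (GRCm39). Mc4r consists of 1 exon on the minus strand of chromosome 18 (chr18:66990775-66993577), and Ntsr1 of 4 exons on the plus strand of chromosome 2 (chr2:180141687-180186773). Calcr spans 16 exons on the minus strand of chromosome 6 (chr6:3685680-3764714), and Avpr1a spans 2 exons on the plus strand of chromosome 10 (chr10:122284404-122289659). Both bombesin receptor genes are X-linked, with Grpr in 3 exons on the minus strand (chrX:162291248-162332673) and Brs3 in 3 exons on the plus strand (chrX:56088434-56094118). Exon numbers are those of the transcript that the panel names.

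Segmentation gave 108533 control cells and 110004 KO cells, but depth differed, with a median of 20 and 101 panel transcripts per cell. All cells of 20 or more transcripts were used, namely 55231 of the control with 2320422 transcripts and 101250 of the KO with 13387158. A level is the number of receptor transcripts per 1000000 panel transcripts (CPM) in the same cells, with 95% intervals that cover counting error only. With 1 section per genotype there was no replicate, no test was possible, and genotype, imaging run and section plane cannot be told apart. Probe sets differ between genes, so levels were compared between places and sections for 1 receptor at a time, not between receptors. In sums over a region, fewer cells of a type and less RNA per cell cannot be told apart.

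Over whole sections, Mc4r and Ntsr1 stood clearly above every blank barcode, whereas the other receptors lay near the upper end of the blanks or within them. The blanks ranged from 19.4 to 262 CPM with a median of 82.1 in the control and from 18.8 to 240 CPM with a median of 87.5 in the KO. Of all panel genes, 64.6% in the control and 69.6% in the KO exceeded the highest blank, compared with 3 of the 6 receptors in the control (Mc4r, Ntsr1 and Avpr1a) and 4 in the KO (Grpr in addition). For Avpr1a, the log2 level over the highest blank was 0.14 in the control and 0.07 in the KO, with intervals that included 0 in both, and it was -0.0045 in the control when all decoded molecules were counted. Grpr in the KO tied with the highest blank when imaging plane 0 alone was counted. The members were thus not above the blanks more often than the panel as a whole.

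**Figure D1:**
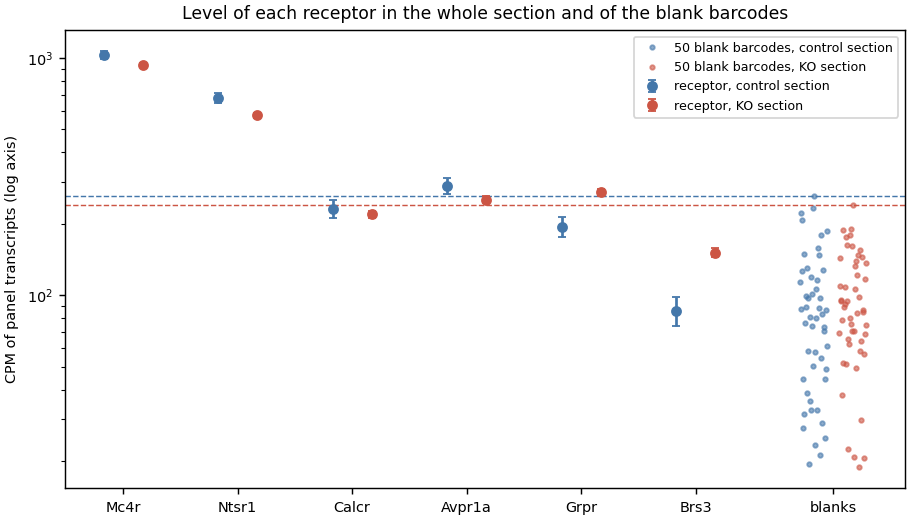
Level of each receptor over the whole control and KO section on a log axis (CPM of panel transcripts, points with 95% counting intervals), beside the 50 blank barcodes of the same cells. Mc4r and Ntsr1 lie above all blanks in both sections, and Brs3 lies among the blanks in both.

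Mc4r reached 1028 CPM in the control (987 to 1070) and 935 CPM in the KO (919 to 951), with a transcript in 3.26% of control cells and 6.75% of KO cells. Ntsr1 reached 678 CPM in the control (645 to 713) and 574 CPM in the KO (561 to 587). Both exceeded all 50 blanks in each section.

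Avpr1a lay at 289 CPM in the control (267 to 311) and 252 CPM in the KO (244 to 261), just above the highest blank. Calcr lay at 231 CPM in the control (211 to 251) and 219 CPM in the KO (211 to 227), above 48 and 49 of the 50 blanks.

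Grpr lay at 194 CPM in the control (176 to 213), above 46 blanks, and at 272 CPM in the KO (263 to 281), above all of them. Brs3 lay at 85.8 CPM in the control (74.3 to 98.5), above 26 blanks, and at 151 CPM in the KO (144 to 157), above 42. Brs3 was therefore indistinguishable from a typical blank barcode over the whole control section. The share of cells with a Brs3 transcript was 0.353% in the control, beside 0.344% for the median blank, and 1.74% in the KO, beside 1.14%.

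Molecules per cell were not counted in the same way for the blanks, and KO cells were deeper. The highest count in a cell was 7 for Mc4r in the control and 23 in the KO. It was 6 and 15 for Calcr and 6 and 12 for Grpr. For Brs3 the highest counts were 2 and 5, and only 4 control cells held at least 2 molecules, compared with 210 KO cells.

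Spatially, every receptor except Avpr1a and Brs3 in the control was more unevenly distributed than every blank barcode. Unevenness was measured over squares of 100 µm, where 1 means that the receptor followed the panel transcripts. Mc4r reached 11.0 in the control and 9.46 in the KO, and Calcr reached 9.15 and 10.1. Both compare with a highest blank of 3.52 in the control and 2.11 in the KO, and with a panel median of 2.66 and 2.55. In the KO the panel median thus exceeded the highest blank itself, so passing that blank was usual for panel genes there.

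Ntsr1 followed with 5.81 and 4.91. Grpr reached 3.61 and 5.72, Brs3 2.82 and 6.39, and Avpr1a 2.97 and 3.26. The control values of Brs3 and Avpr1a exceeded 49 of the 50 blanks. Thus, Brs3 and Calcr, which did not exceed the highest blank in level in either section, did so by their distribution in the KO, and Calcr did so in both.

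**Figure D2:**
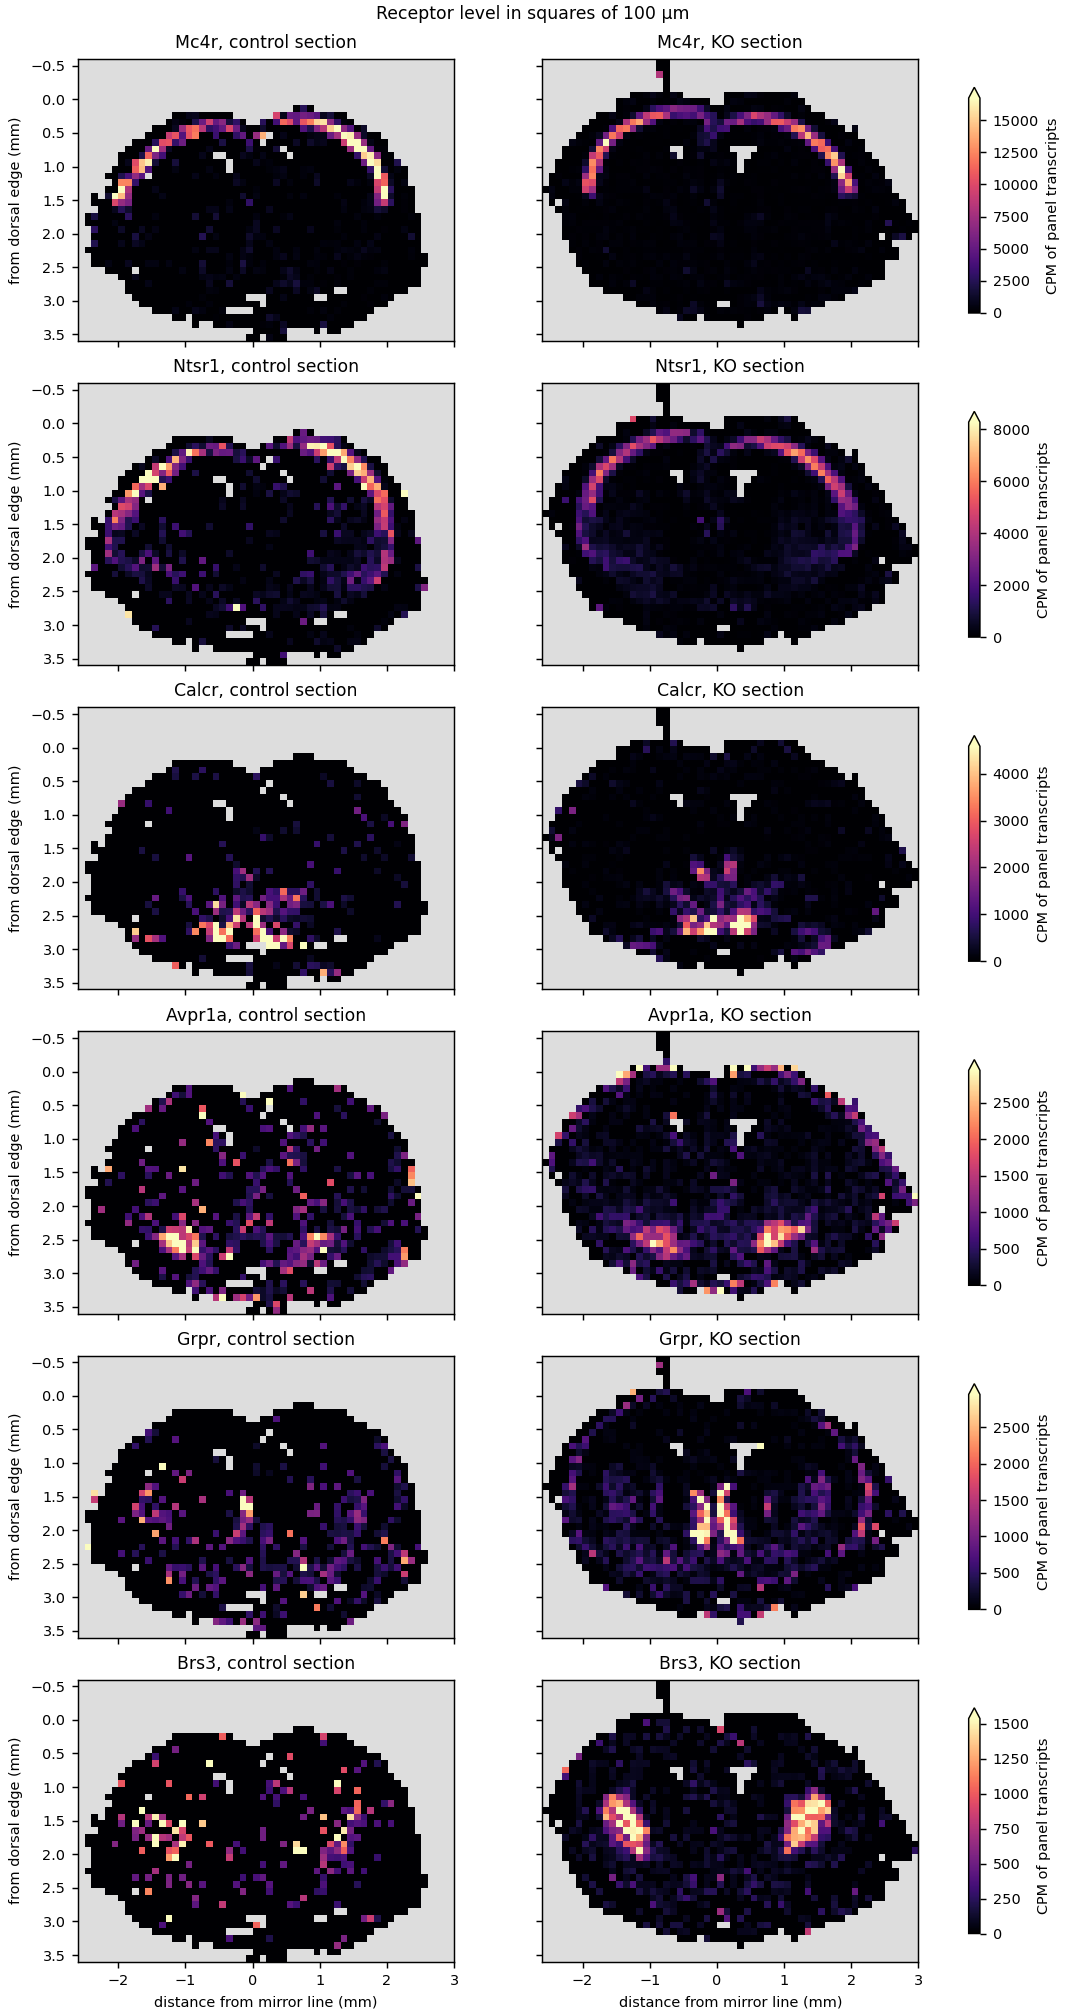
Level of each receptor in squares of 100 µm (CPM of panel transcripts, colour, clipped at the upper end of each scale) across the control section (left column) and the KO section (right column), with the distance from the mirror line of the brain and from its dorsal edge in mm. Mc4r and Ntsr1 trace the cortical arc, Calcr marks the ventral midline tissue, Avpr1a marks a pair of ventral spots, Grpr marks a pair of stripes beside the midline in the KO, and Brs3 fills the striatal region in the KO.

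Each section was divided into 5 regions by marker genes that did not include the receptors. The pallial region holds the developing cortex, and the striatal region was drawn from genes of striatal projection neurons such as Drd2 and Adora2a. The remaining brain was split into a midline remainder, within 500 µm of the mirror line, and a lateral remainder. Tissue rich in mesenchymal markers was called outside the brain. In the control, these regions held 21.4%, 10.9%, 14.9%, 24.0% and 28.8% of panel transcripts. In the KO they held 24.0%, 14.4%, 14.2%, 24.7% and 22.7%.

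**Figure D3:**
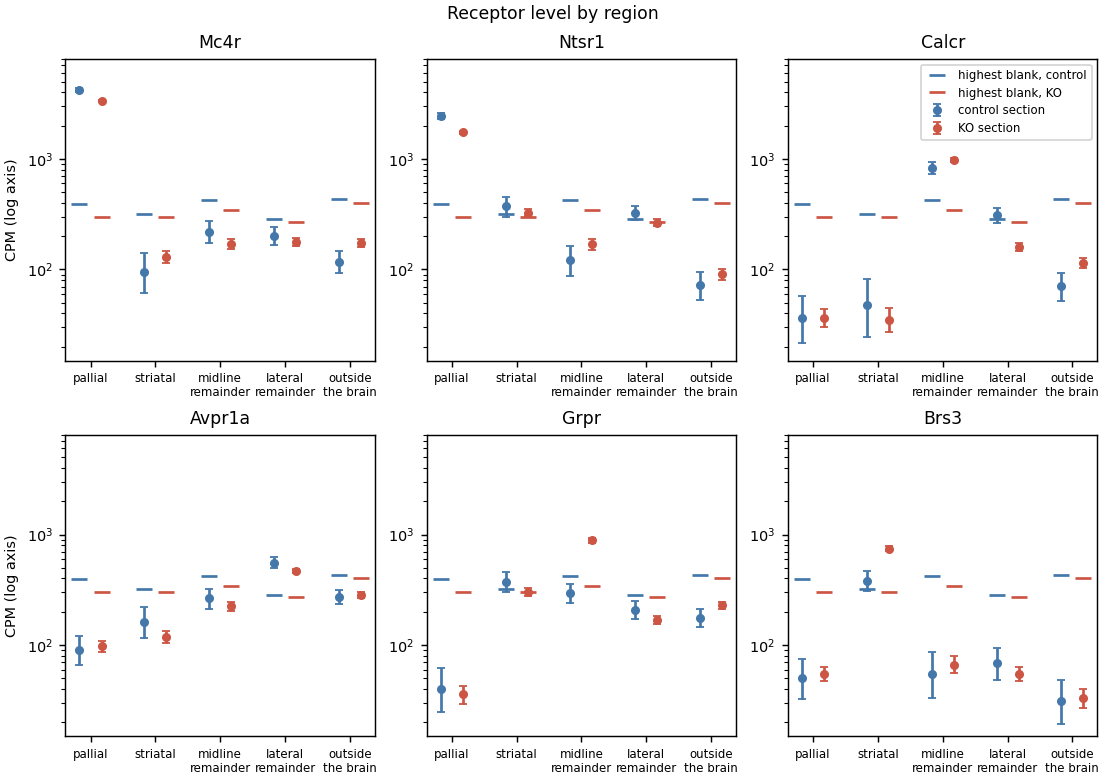
Level of each receptor in the 5 regions of both sections on a log axis (CPM of panel transcripts, with 95% counting intervals), beside the highest blank barcode of the same region (short bars). Each receptor exceeds the highest blank in its leading region in the KO.

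Mc4r was almost entirely pallial. The pallial region held 87.8% of its transcripts in the control (86.4 to 89.1) and 86.5% in the KO (85.9 to 87.1), at 4224 CPM (4045 to 4409) and 3372 CPM (3309 to 3436). The highest blank of the region lay at 393 and 299 CPM, so that Mc4r exceeded it 10.7-fold and 11.3-fold. In the other 4 regions Mc4r ranged from 94.9 to 220 CPM in the control and from 131 to 177 CPM in the KO, above the median blank but below the highest blank of each region.

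Ntsr1 was pallial as well, but less exclusively. The pallial region held 76.7% of its transcripts in the control (74.6 to 78.8) and 72.6% in the KO (71.6 to 73.6), at 2437 CPM and 1737 CPM, or 6.19-fold and 5.80-fold above the highest blank. Outside the pallium, Ntsr1 lay at 372 CPM in the striatal region of the control and 327 CPM in that of the KO, where the highest blank was 320 and 301 CPM. In the ventral band of the lateral remainder (the lowest of 4 bands of equal height), it reached 461 CPM in the control (388 to 544) and 452 CPM in the KO (416 to 490). These values also exceeded the highest blank of that band, at 408 and 401 CPM.

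Within the pallial region, both receptors were highest at mid-depth. This was near the median depth of Tbr1, a transcription factor of layer VI, at 0.563 in the control and 0.529 in the KO. The median of all panel transcripts was similar, at 0.586 and 0.538, and that of Fezf2 was 0.531 and 0.444. Nearness to the Tbr1 median therefore does not place the receptors in a layer. Relative depth ran in 10 bins from the pial edge (0) to the inner edge of the pallial region (1), where other brain tissue began. This inner edge is not the ventricle. Of the radial glia-like cells led by Hopx and Aldoc, 18.1% in the control and 31.7% in the KO lay in the pallial region. Mc4r rose from 590 CPM in the outermost bin of the control to 7764 CPM in bin 6 (7258 to 8295) and fell to 175 CPM in the innermost bin. In the KO it rose from 663 CPM to 6724 CPM in bin 6 (6532 to 6920) and fell to 224 CPM.

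Ntsr1 peaked in the same bin, at 3740 CPM in the control (3392 to 4115) and 2970 CPM in the KO (2843 to 3101). In bin 3, nearer the pial edge, Ntsr1 lay at 2658 CPM in the control (2064 to 3370) and 2043 CPM in the KO (1873 to 2224). Mc4r lay at 1681 CPM (1216 to 2264) and 3103 CPM (2893 to 3324) in that bin, so that its level relative to its own peak differed between sections. The mean blank lay between 86.0 and 117 CPM in all bins of both sections.

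The median depths of both receptors were close to each other. The median was 0.544 for Mc4r and 0.540 for Ntsr1 in the control, and 0.519 and 0.518 in the KO. The sides of the control differed by about as much as the sections, with 0.518 and 0.554 for Mc4r and 0.526 and 0.547 for Ntsr1. The share of Mc4r transcripts in the outer 5 bins was 26.6% in the control (24.8 to 28.6) and 40.6% in the KO (39.7 to 41.5). The same share of all panel transcripts was between 29.9% and 30.1% in the control and between 39.3% and 39.4% in the KO, and the part of this shift in the depth of Mc4r was not tested. For orientation, Eomes, a marker of intermediate progenitors, had its median depth at 0.807 in the control and 0.813 in the KO.

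**Figure D4:**
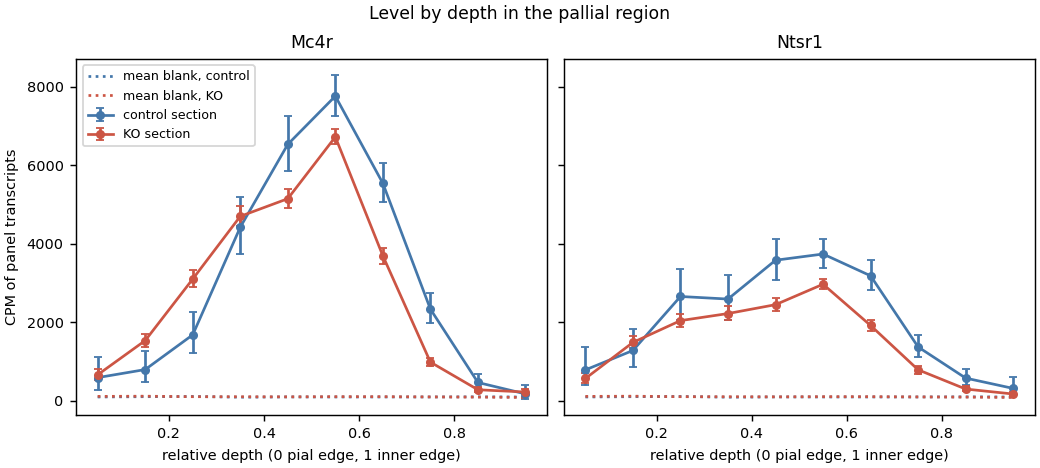
Level of Mc4r and Ntsr1 (CPM of panel transcripts, with 95% counting intervals) in 10 bins of relative depth through the pallial region, from the pial to the inner edge, in both sections, with the mean blank as a dotted line. Both receptors peak in bin 6 in both sections.

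Along the cortical arc, both receptors were highest at intermediate distances from the midline. When the pallial cells were divided into a medial, a middle and a lateral stretch with equal numbers of cells, Mc4r lay at 2398, 6501 and 3936 CPM in the control. In the KO it lay at 1561, 5225 and 3402 CPM. Ntsr1 followed the same order, with 1063, 3787 and 2554 CPM in the control and 590, 2611 and 1959 CPM in the KO. The intervals of the 3 stretches did not overlap for either receptor in either section. Over all brain transcripts, not the pallial ones alone, the upper quartile of position lay further ventrally for Ntsr1 than for Mc4r, with Mc4r and Ntsr1 at 41.8% and 62.5% of the way from the dorsal to the ventral edge in the control, and at 39.5% and 61.4% in the KO.

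Calcr was concentrated near the ventral midline. The midline remainder held 53.5% of its transcripts in the control (49.1 to 57.7) and 63.8% in the KO (62.1 to 65.6), at 829 CPM (736 to 931) and 981 CPM (937 to 1026). This exceeded the highest blank of the region 1.96-fold and 2.87-fold. In the ventral band of that region, the level was 1866 CPM in the control (1635 to 2120) and 1733 CPM in the KO (1642 to 1829).

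Calcr was low elsewhere except ventrally in the lateral remainder. There it lay at 520 CPM in the ventral band of the control (442 to 608) and 324 CPM in that of the KO (294 to 357), beside a highest blank of 408 and 401 CPM. In the pallial region Calcr lay at 36.3 CPM in the control and 36.8 CPM in the KO, below the median blank of 76.7 and 92.5 CPM. In the striatal region it was likewise below the median blank, with 47.4 and 35.3 CPM. Pallial and striatal Calcr was thus not detectable over background.

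Avpr1a was highest in a pair of ventral spots on either side of the brain. The lateral remainder held 46.1% of its transcripts in the control (42.29 to 49.98) and 45.7% in the KO (44.0 to 47.4), at 554 CPM (494 to 620) and 468 CPM (445 to 492). In the ventral band of that region the level was 819 CPM in the control (721 to 928) and 1015 CPM in the KO (961 to 1072), beside a highest blank of 408 and 401 CPM. The next band dorsally held 231 and 145 CPM, below the highest blank of that band.

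Tissue outside the brain held 27.5% of Avpr1a transcripts in the control (24.1 to 31.0) and 25.7% in the KO (24.2 to 27.2). In level, however, this tissue lay at 275 and 285 CPM, below its highest blank of 430 and 403 CPM. The map of Avpr1a shows them along the rim of the section.

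The regional shares of Grpr differed between the 2 sections, but over the whole control section its level was below the highest blank. In the control, it was spread over the midline remainder (22.7%), the striatal region (20.9%), the lateral remainder (25.8%) and tissue outside the brain (26.2%). Blank counts of the control were shared as 16.6%, 12.9%, 25.3% and 22.5% over the same regions, so much of this spread resembled background. In the KO, the midline remainder alone held 46.4% of Grpr transcripts (44.7 to 48.0). The level of the midline remainder was 296 CPM in the control (241 to 359), below its highest blank of 423 CPM, and 884 CPM in the KO (843 to 928), 2.59-fold above its highest blank.

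Within the midline remainder, Grpr was highest in band 3, the band above the ventral one, in both sections. It lay there at 510 CPM in the control (401 to 639) and 1361 CPM in the KO (1285 to 1441), beside a highest blank of 531 and 404 CPM. In the KO it formed a pair of narrow stripes on both sides of the midline, whereas the control showed 1 such stripe. The median distance of Grpr transcripts from the mirror line was 978 µm in the control and 308 µm in the KO. For the blanks it was 938 and 974 µm, and for all panel transcripts 957 and 945 µm, so the control value was near background. In the striatal region, Grpr lay at 372 CPM in the control (300 to 455) and 301 CPM in the KO (277 to 326), at or just above the highest blank of that region.

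Of the 5 regions, Brs3 exceeded the highest blank only in the striatal region, with an interval clear of that blank in the KO only. The striatal region held 48.2% of its transcripts in the control (41.1 to 55.4) and 71.0% in the KO (69.0 to 73.0), beside 10.9% and 14.4% of panel transcripts. Its level there was 379 CPM in the control (307 to 463) and 743 CPM in the KO (705 to 783), 1.19-fold and 2.47-fold above the highest blank. The control interval included that blank, at 320 CPM. In the other 4 regions Brs3 ranged from 31.4 to 68.2 CPM in the control and from 32.9 to 66.6 CPM in the KO, in each case below the median blank of the region.

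To ask which cell types held the receptors, the kept cells of both sections were clustered without the 6 receptors, which gave 26 clusters. A cluster was called by a class name followed by "-like" only where at least 3 markers of the class, and more than of any other class, were among its top 10 genes, and it was otherwise named by its leading genes. Microglia or macrophage-like cells, which should lack these neuronal receptors, served as background for shares of cells. For these shares, cells were thinned to 25 transcripts each, and shallower cells were left out.

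**Figure D5:**
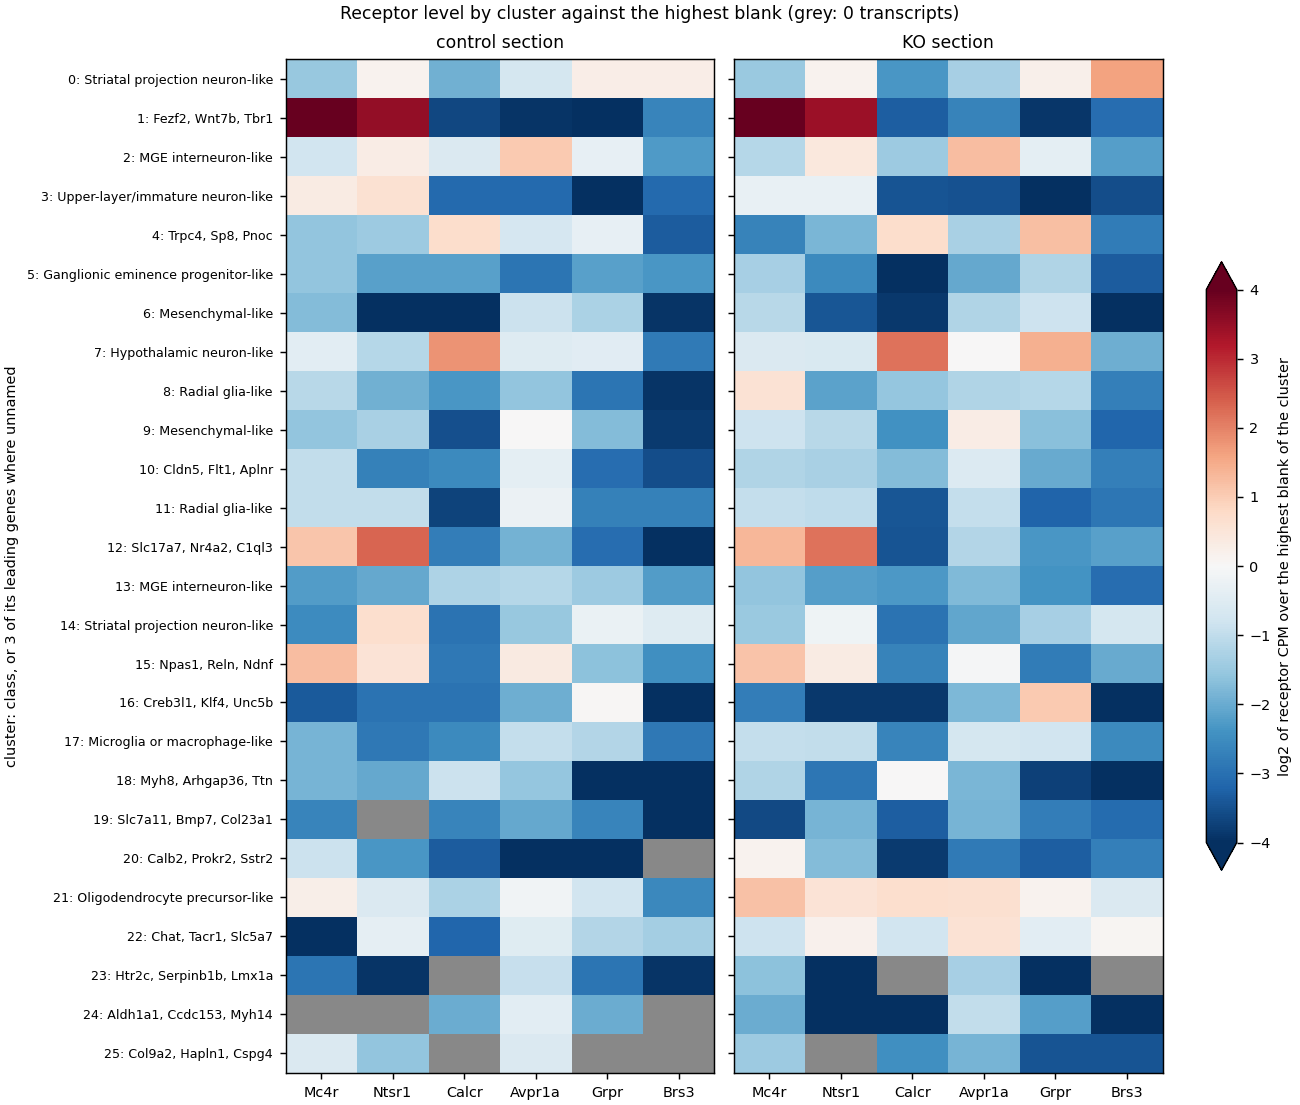
Log2 of the level of each receptor over the highest blank barcode in each of 26 clusters (colour, grey where there were 0 transcripts), control section on the left and KO section on the right, with clusters named by class or by 3 of their leading genes. Mc4r and Ntsr1 share 1 leading cluster, and the other receptors each lead elsewhere.

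Mc4r was found mainly in 1 cluster, which was led by Fezf2, Wnt7b and Tbr1, of which Fezf2 and Tbr1 are genes of deep-layer projection neurons. This cluster was left unnamed because fewer than 3 markers of any 1 class were among its top 10 genes. These held 2 deep-layer markers and equally 2 markers of upper-layer or immature projection neurons, Rorb among them. The markers therefore did not settle the layer of this cluster. It lay in the pallial region for 99.1% of its control cells and 99.9% of its KO cells, and held 77.4% and 75.5% of all Mc4r transcripts. The level was 11022 CPM in the control (10525 to 11537) and 8855 CPM in the KO (8677 to 9035), 24.6-fold and 25.4-fold above the highest blank of that cluster.

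After thinning, a Mc4r transcript was found in 21.9% of that cluster in the control (20.5 to 23.3) and in 18.1% in the KO (17.3 to 18.9), beside 0.514% and 0.563% of microglia-like cells. All other clusters were far lower. The next was led by Slc17a7, Nr4a2 and C1ql3, with 841 CPM in the control (675 to 1034) and 826 CPM in the KO (761 to 896).

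Further down the order for Mc4r in the control, each cluster from the second to the fifth overlapped its neighbour in counting error. Upper-layer or immature projection neuron-like cells lay at 724 CPM in the control (559 to 922) and at 336 CPM in the KO (298 to 379). A cluster led by Npas1, Reln and Ndnf lay at 517 CPM in the control (386 to 678) and 694 CPM in the KO (620 to 775). Oligodendrocyte precursor-like cells lay at 453 CPM in the control (248 to 760) and 479 CPM in the KO (385 to 589), where they lay below the cluster led by Npas1 beyond counting error. In all, 5 of 26 clusters in the control and 6 in the KO exceeded their highest blank.

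Within the pallial region, cells with Mc4r differed from the other cells in their other transcripts. Fezf2, a transcription factor of subcortically projecting neurons, was higher in Mc4r cells by 1.13 on the log2 scale in the control (1.04 to 1.22) and by 1.22 in the KO (1.19 to 1.25). Tbr1, a transcription factor of layer VI, was higher by 0.74 (0.68 to 0.80) and 0.69 (0.67 to 0.71). The dopamine receptor gene Drd1 was higher by 1.96 (1.66 to 2.25) and 2.37 (2.26 to 2.49). The inhibitory markers Gad1 and Gad2 together were lower, with log2 ratios of -1.48 (-1.83 to -1.14) and -1.23 (-1.33 to -1.13), and so was Slc17a6, with -2.03 and -1.85.

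Ntsr1 shared the leading cluster of Mc4r, but a larger part of it lay in others. The cluster led by Fezf2, Wnt7b and Tbr1 held 55.0% of Ntsr1 transcripts in the control and 51.3% in the KO, at 5167 CPM (4829 to 5524) and 3696 CPM (3581 to 3813). The cluster led by Slc17a7, Nr4a2 and C1ql3 followed with 13.1% and 13.5% of transcripts, at 1946 CPM (1689 to 2230) and 1474 CPM (1385 to 1566). After thinning, 4.75% and 3.41% of the cells of the latter held Ntsr1, beside 0.171% and 0.154% of microglia-like cells.

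Ntsr1 was also found at a low level in inhibitory cells. MGE interneuron-like cells led by Sst and Elfn1, which derive from the medial ganglionic eminence by their markers, lay at 527 CPM in the control (436 to 631) and 574 CPM in the KO (531 to 619), 1.22-fold and 1.35-fold above their highest blank. Striatal projection neuron-like cells led by Rxrg and Drd1 lay at 371 CPM in the control (285 to 475) and 337 CPM in the KO (306 to 370). Their highest blank was 336 and 308 CPM, which these intervals include. Striatal projection neuron-like cells led by Drd2 and Adora2a lay at 570 CPM in the control, from 37 transcripts, and at 338 CPM in the KO. Upper-layer or immature projection neuron-like cells lay at 891 CPM in the control (706 to 1109) and at 339 CPM in the KO (300 to 381), where they did not exceed the highest blank of 412 CPM. In each section 7 of 26 clusters exceeded their highest blank.

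Ntsr1 cells of the pallial region were marked by Slc17a7, which encodes a vesicular glutamate transporter. It was higher in them than in other pallial cells by 0.85 on the log2 scale in the control (0.68 to 1.02) and by 1.14 in the KO (1.07 to 1.21), whereas in Mc4r cells it was not, with -0.37 (-0.57 to -0.17) and -0.24 (-0.32 to -0.16). Drd1 was higher by 1.14 in the control (0.79 to 1.48) and by 1.49 in the KO (1.38 to 1.60). The same log2 ratio for Gad1 and Gad2 was -0.40 in the control (-0.70 to -0.12) and -0.47 in the KO (-0.56 to -0.38).

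Mc4r and Ntsr1 occurred in the same cells. Of the brain cells with Ntsr1, 22.7% in the control (20.5 to 25.0) and 33.1% in the KO (31.9 to 34.4) also held Mc4r, compared with 3.97% and 7.76% of all brain cells. These shares were not thinned, and all brain cells include clusters low in both receptors. In the shared leading cluster, Mc4r was common in any case. It was present in 1301 control cells and absent from 3258, and present in 4337 KO cells and absent from 4808. Within the shared leading cluster, Ntsr1 lay at 6717 CPM in the control cells with Mc4r and at 4545 CPM in those without, a log2 ratio of 0.56 (0.28 to 0.84), and at 4350 and 2925 CPM in the KO, a log2 ratio of 0.57 (0.44 to 0.71). A segmented cell may hold molecules of a neighbour, and the part of such molecules in these ratios was not tested.

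Calcr was led by hypothalamic neuron-like cells, whose top genes included Irs4, Baiap3 and Trh. They held 41.9% of its transcripts in the control and 47.4% in the KO, at 1857 CPM (1622 to 2117) and 1674 CPM (1587 to 1765), 3.50-fold and 4.46-fold above the highest blank. A cluster led by Trpc4, Sp8 and Pnoc, of which 74.8% of the control cells and 86.2% of the KO cells lay in the midline remainder, followed with 886 CPM (732 to 1064) and 776 CPM (712 to 844). After thinning, 3.64% and 3.80% of hypothalamic neuron-like cells held Calcr, beside 0.257% and 0.0512% of microglia-like cells.

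In the remaining order for Calcr, most clusters were within the blanks. A cluster outside the brain led by Myh8, Arhgap36 and Ttn, of which Myh8 and Ttn are muscle genes, lay at 316 CPM in the control (180 to 512), below its highest blank, and at 633 CPM in the KO (549 to 727), level with its highest blank of 630 CPM. MGE interneuron-like cells led by Sst lay at 293 CPM in the control (226 to 373) and 156 CPM in the KO (134 to 181), below the highest blank in both. Oligodendrocyte precursor-like cells exceeded it in the KO, with 341 CPM (262 to 435), but not in the control, with 162 CPM (52.6 to 378).

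Among Calcr cells of the midline remainder, inhibitory markers were raised in the control and an excitatory marker in the KO. Neither section showed both beyond counting error. Slc17a6, which encodes the glutamate transporter of many hypothalamic and thalamic neurons, was higher in them than in other cells of that region by 0.74 on the log2 scale in the KO (0.60 to 0.89), and by 0.52 in the control, with an interval that included 0 (-0.23 to 1.21). Gad1 and Gad2 together were higher by 0.50 in the control (0.26 to 0.74), while in the KO the log2 ratio was -0.01 (-0.07 to 0.05). Drd2 was higher by 1.75 in the control (0.85 to 2.58) and by 0.98 in the KO (0.74 to 1.22).

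Avpr1a was led by the MGE interneuron-like cells with Sst and Elfn1 among their top genes, of which 80.9% in the control and 83.9% in the KO lay in the lateral remainder rather than in the cortex. They held 29.4% and 33.6% of Avpr1a transcripts, at 887 CPM (768 to 1020) and 992 CPM (935 to 1052), 2.05-fold and 2.34-fold above the highest blank. After thinning, 2.26% (1.84 to 2.75) and 2.51% (2.16 to 2.89) of these cells held Avpr1a, beside 0.599% and 0.614% of microglia-like cells. The second MGE interneuron-like cluster, led by Dlx1 and Sp9, was lower, with 277 CPM in the control and 167 CPM in the KO.

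A cluster with Chat, Tacr1 and Slc5a7 among its top genes, of which Chat and Slc5a7 mark cholinergic neurons, lay at 510 CPM in the control (272 to 873) and 551 CPM in the KO (446 to 673), above its highest blank only in the KO. Mesenchymal-like cells led by Hdc and Osr1 lay at 342 CPM in the control and 413 CPM in the KO (368 to 463). Hypothalamic neuron-like cells lay at 373 CPM (272 to 499) and 379 CPM (338 to 423), with intervals that overlapped those of the mesenchymal-like cells. A cluster of 115 control cells led by Aldh1a1 and Ccdc153 ranked second in the control at 633 CPM, from 3 transcripts (131 to 1851). The 2 leading clusters held 29.9% of Avpr1a transcripts in the control and 36.5% in the KO.

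Avpr1a cells of the lateral remainder were rich in Lhx6, the transcription factor of MGE-derived neurons. Lhx6 was higher in them than in other cells of that region by 0.88 on the log2 scale in the control (0.67 to 1.07) and by 1.08 in the KO (1.03 to 1.14). Sst itself was higher by 1.27 in the KO (1.13 to 1.41), with no such difference detectable in the control (-0.06, interval -0.82 to 0.64), where 283 cells of the region held Avpr1a compared with 1260 in the KO.

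Because Cre is driven by Sst, the receptors were also counted in brain cells with at least 2 Sst transcripts, 275 in the control and 1814 in the KO. Avpr1a lay at 413 CPM in these cells of the control, from 6 transcripts (152 to 900), and at 609 CPM in the KO (534 to 692), compared with 294 and 229 CPM in the other brain cells. The control value was below the highest blank of these cells. Ntsr1 lay at 758 CPM in the Sst cells of the control, from 11 transcripts (378 to 1356), and at 737 CPM in those of the KO (654 to 828). The other brain cells lay at 927 and 716 CPM, so Ntsr1 was not particular to the Sst cells. The highest blank of the Sst cells was 551 and 393 CPM, and the control interval included it. Mc4r, Calcr, Grpr and Brs3 did not exceed the highest blank in the Sst cells of either section, and Calcr had 0 transcripts in those of the control, with an interval that reached 254 CPM.

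The leading cluster of Grpr differed between sections and clusterings. At resolution 1.2 it was striatal projection neuron-like in the control (547 CPM) and hypothalamic neuron-like in the KO (1050 CPM), and with the receptors kept in the clustering it was the cluster led by Onecut2, Trpc4 and Sp8 in both. At the resolution of 0.8 used throughout, in the control, a cluster outside the brain led by Creb3l1, Klf4 and Unc5b lay at 480 CPM (328 to 678), the midline cluster led by Trpc4, Sp8 and Pnoc at 432 CPM (326 to 561), and striatal projection neuron-like cells led by Rxrg and Drd1 at 406 CPM (316 to 514). The intervals of these and of hypothalamic neuron-like cells (390 CPM, 286 to 518) overlapped. In the KO, the midline cluster led with 1092 CPM (1016 to 1173), followed by hypothalamic neuron-like cells with 1011 CPM (943 to 1082) and the cluster led by Creb3l1 with 791 CPM (704 to 886).

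The number of clusters above their highest blank was 2 of 26 in the control and 5 in the KO. After thinning, Grpr was found in 1.09% of the midline cluster in the control (0.740 to 1.54) and in 2.41% in the KO (2.03 to 2.84), beside 0.428% and 0.307% of microglia-like cells. Grpr cells of the midline remainder carried more Drd2 than other cells there, by 2.20 on the log2 scale in the control (1.06 to 3.20) and by 1.61 in the KO (1.39 to 1.83). They also carried more Isl1, a transcription factor of striatal and hypothalamic neurons, by 1.26 in the control (0.30 to 2.10) and by 1.07 in the KO (0.95 to 1.18).

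Brs3 was led by striatal projection neuron-like cells with Rxrg, Tac1 and Drd1 among their top genes, which held 34.2% of its transcripts in the control and 59.4% in the KO. The level was 400 CPM in the control (311 to 508) and 938 CPM in the KO (886 to 993), 1.19-fold and 3.04-fold above the highest blank. The control interval included that blank, at 336 CPM. The other striatal projection neuron-like cluster, led by Drd2 and Adora2a, lay at 246 CPM in the control (141 to 400) and 232 CPM in the KO (189 to 283), below its highest blank in both. Tac1 and Drd1 mark the direct pathway of the striatum, and Drd2 and Adora2a the indirect pathway. The cluster with Chat, Tacr1 and Slc5a7 among its top genes lay at 275 CPM in the control (110 to 566) and at 390 CPM in the KO (303 to 495), just above its highest blank in the KO only.

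After thinning, Brs3 was found in 0.930% of the Drd1 cluster in the control (0.641 to 1.30) and in 2.13% in the KO (1.84 to 2.44), beside 0.0856% and 0.154% of microglia-like cells. Brs3 cells of the striatal region carried more Tac1 than other striatal cells in the KO, by 0.94 on the log2 scale (0.76 to 1.12). They carried more Drd1, by 0.61 (0.51 to 0.72), but less Drd2, with a log2 ratio of -0.32 (-0.41 to -0.22). Isl1 was also lower in them, with -0.19 (-0.27 to -0.10), and no difference was detectable for Penk (-0.12, interval -0.43 to 0.17). In the control, which had 92 such cells, the log2 ratios were 1.18 for Tac1 (-0.97 to 2.81), 0.26 for Drd1 (-0.52 to 0.96) and -1.33 for Drd2 (-2.34 to -0.46). They were 0.38 for Isl1 (-0.24 to 0.95) and -0.69 for Penk (-3.93 to 1.37) there.

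The panel genes most like each receptor across the 26 clusters were found by Spearman's rho, taken as the lower value of both sections, among the 232 or 233 genes whose CPM reached the median of the panel in each section. They were Clstn2 (0.67 in the control and 0.68 in the KO), Tbr1 (0.73 and 0.64) and Pcdh9 (0.63 and 0.74) for Mc4r, and Rbfox1 (0.84 and 0.82), Cdh13 (0.78 and 0.79) and Ptprt (0.78 and 0.77) for Ntsr1. For Calcr they were Rxrg (0.59 and 0.63), Gad1 (0.58 and 0.52) and Peg10 (0.50 and 0.73), and for Avpr1a Plcb4 (0.76 and 0.62), Adra1b (0.54 and 0.55) and Cdkn1a (0.51 and 0.59). For Grpr they included Cpne5 (0.54 and 0.66) and Grin3a (0.54 and 0.62), and for Brs3 they were Slc32a1 (0.77 and 0.81), Lhx6 (0.75 and 0.79) and Drd2 (0.74 and 0.79). These coefficients describe 26 clusters whose cells share 2 sections and their depth.

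Between genotypes, no receptor differed by 2-fold or more over the whole section, where 4.4% of the 500 panel genes were at least 2-fold higher in the KO and 1.4% at least 2-fold lower. Ratios are given as log2 of KO over control, with intervals that pair opposite ends of both counting intervals. Brs3 had the highest ratio of the receptors, 0.81 (0.55 to 1.08), followed by Grpr with 0.49 (0.31 to 0.67). Both lay within the central range of the panel genes, whose median was 0.13 with a 5th percentile of -0.71 and a 95th percentile of 0.95, and within the range of the blanks, from -1.11 to 1.29.

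For the other receptors, the point values were below 0, and the interval of Calcr included 0. The log2 ratio was -0.14 for Mc4r (-0.22 to -0.05), -0.24 for Ntsr1 (-0.35 to -0.14), -0.19 for Avpr1a (-0.35 to -0.03) and -0.07 for Calcr (-0.25 to 0.10). Except for Brs3, the ratios depended on which side of the brain was taken. The sides were counted in brain cells alone, whereas the ratios above also cover tissue outside the brain. On either side of the mirror line, Mc4r lay at 1010 and 1615 CPM in the control, and at 1101 and 1215 CPM in the KO. The difference between the sides of the control thus exceeded that between the sections. The log2 ratio over the 4 pairings of sides ranged from -0.55 to 0.27 for Mc4r, from -0.69 to 0.21 for Ntsr1, from -0.61 to 0.02 for Calcr and from 0.087 to 0.80 for Grpr. It ranged from -0.63 to -0.032 for Avpr1a and from 0.56 to 0.94 for Brs3, which stayed within its whole-section interval. With a minimum of 50 transcripts per cell, the ratio turned to 0.38 for Mc4r and to 0.14 for Ntsr1.

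Within the pallial region, where 3.8% of panel genes were at least 2-fold higher in the KO and 2.2% at least 2-fold lower, none of the 6 receptors passed either limit. Mc4r had a log2 ratio of -0.32 (-0.41 to -0.24) and Ntsr1 of -0.49 (-0.61 to -0.37), at the 18.4th and 11.8th percentile of the panel. In the shared leading cluster the ratios were -0.32 for Mc4r and -0.48 for Ntsr1. In upper-layer or immature projection neuron-like cells they were -1.11 for Mc4r (-1.63 to -0.56) and -1.39 for Ntsr1 (-1.89 to -0.89), from control levels above the highest blank and KO levels below it. The 5th percentile of panel genes in that cluster was -1.31.

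The regional differences of Grpr and Brs3 were larger. In the midline remainder, where 8.8% of panel genes were at least 2-fold higher in the KO and 4.4% at least 2-fold lower, Grpr was the 1 receptor past that limit, with a log2 ratio of 1.58 (1.23 to 1.94), at the 98.4th percentile of the panel but within the range of the blanks there, from -1.66 to 2.15. It was higher in both midline cell types, by 1.34 in the cluster led by Trpc4, Sp8 and Pnoc (0.86 to 1.85) and by 1.38 in hypothalamic neuron-like cells, although neither exceeded its highest blank in the control. In the cluster led by Trpc4, the level of Grpr was 708 CPM in the control and 1126 CPM in the KO with a minimum of 50 transcripts per cell. With the receptors kept in the clustering, it was 1049 and 1827 CPM in the cluster led by Onecut2, Trpc4 and Sp8. This was 1.89-fold and 3.82-fold above the highest blank of that cluster. Grpr itself was then among the features that grouped the cells, which can raise its level in the cluster. These values are therefore not independent of the grouping. In the striatal region the ratio of Grpr was -0.30 (-0.72 to 0.12).

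Brs3 had a log2 ratio of 0.97 in the striatal region (0.61 to 1.35) and of 1.23 in the striatal projection neuron-like cells with Drd1 (0.80 to 1.68), at the 93.8th and 96th percentile of the panel. The striatal value lay below the 95th percentile of the panel in that region, 1.01, and within the range of the blanks there, from -1.46 to 2.03. In the Drd2 cluster it was -0.08 (-1.08 to 1.01). Tac1, a leading gene of the cluster with Drd1, was itself higher over the whole KO section, with 99.6 CPM in the control and 280 CPM in the KO. The striatal region of the control measured 1.42 mm² and that of the KO 1.53 mm², and the part of the section plane in these differences was not tested.

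For Calcr and Avpr1a, no difference was detectable in their leading cell types. Calcr had a log2 ratio of -0.15 in hypothalamic neuron-like cells (-0.42 to 0.12) and of -0.19 in the cluster led by Trpc4 (-0.58 to 0.21). Avpr1a had a ratio of 0.16 in MGE interneuron-like cells (-0.12 to 0.45). These intervals include 0 and leave room for differences of the sizes they span. In the lateral remainder, Calcr had a ratio of -0.96 (-1.30 to -0.61), at the 7.8th percentile, and in the MGE interneuron-like cells, most of which lay there, of -0.90 (-1.47 to -0.32).

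Of 53 other neuropeptide receptor genes considered, 31 were on the panel, and 11 of them exceeded the highest blank in each section, compared with 64.6% of all panel genes in the control and 69.6% in the KO. Of these, 10 did so in both sections, Tacr3 in the control only and Kiss1r in the KO only. The receptors more than 4-fold above the highest blank in both sections were Oprl1, Sstr2, Ednrb, Prokr2 and Aplnr. Of the 31, 1 was at least 2-fold higher in the KO, Hcrtr2 with a log2 ratio of 1.51 from levels within the range of the blanks in both sections (50.4 and 144 CPM), and 0 were at least 2-fold lower, beside 4.4% and 1.4% of the panel. The lowest ratio was that of Tacr3, -0.71, and the median was 0.27, compared with 0.13 over all panel genes.

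Most ligand genes of the receptors lay among the blanks. Nts, the gene of neurotensin, lay at 326 CPM in the control and 329 CPM in the KO, above the highest blank in both. Pomc lay at 260 and 331 CPM, above the highest blank in the KO only, and Agrp at 37.1 and 53.9 CPM, below the median blank. Grp, which encodes gastrin-releasing peptide, lay at 72.8 and 98.7 CPM, and Calca, the calcitonin gene, at 93.9 and 95 CPM, all within the range of the blanks. Ramp3, the partner of Calcr in amylin receptors, lay at 234 and 216 CPM, and at 142 and 135 CPM in the midline remainder where Calcr was highest. Of 30 ligand and accessory genes considered, 21 were on the panel, of which 6 in the control and 11 in the KO exceeded the highest blank, beside the same 64.6% and 69.6% of the panel. Of the 21, 1 was at least 2-fold higher in the KO (Tac1, 1.49) and 0 were at least 2-fold lower, beside 4.4% and 1.4% of the panel. The lowest ratio of that list was that of Vip, -0.24.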

How the data were processed

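MERFISH was run by the authors on 1 control and 1 KO section with a commercial panel of 500 genes and 50 blank barcodes. As the labels and methods state, the instrument software decoded molecules over 7 imaging planes and segmented cells, and the authors deposited raw counts per cell, which are not normalized, with molecule and cell positions. The genome build behind the panel is not given in the sources used here, and gene positions were taken from GRCm39 through the panel's transcript identifiers. The number of cell identifiers shared between sections was 0. Cells under 20 panel transcripts were left out, and no doublet caller was run. Clustering was done in Seurat 5.3.0 (R 4.3.3) with reciprocal PCA integration, 30 components and resolution 0.8, without the 6 receptors. Python 3.11.15 with numpy 2.4.6, scipy 1.17.1 and pandas 2.3.3 was used for the rest. Regions were drawn on 25 µm bins smoothed over 50 µm, as pallial where pallial genes made up over 50% of pallial and subpallial marker transcripts, striatal at 3% and outside the brain at 10% of the respective genes. Levels carry exact Poisson intervals and shares exact Clopper-Pearson intervals, both at 95%. Steps were tested on simulated data. The members, gene lists, regions and thresholds were chosen with earlier results of these data known. Named genes were the 6 receptors, the 3 genes most like each and, of 2 pathway lists, those over 4-fold above the highest blank or with the highest and lowest ratio. Some genes are not reported here. Companion genes and ligands were named beside this rule, after values were seen. Alternatives changed the minimum, the molecules, the scaling, the sides, the resolution and the clustering features.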

Additional observations from a re-analysis of the deposited data

Results flagged for a closer look

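Mc4r and Calcr had counting intervals of the KO over control ratio on opposite sides of 0 in different regions. The log2 ratio of Mc4r was -0.32 in the pallial region and 0.58 outside the brain, where it lay below the highest blank in both sections. That of Calcr was 0.24 in the midline remainder, 0.71 outside the brain and -0.96 in the lateral remainder. Calcr was below the highest blank outside the brain in both sections, and in the lateral remainder of the KO. Outside the brain, the median ratio was 0.34 over all panel genes and 0.66 over the blanks. The difference between regions was not tested, since each genotype had 1 section.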

How the results depend on the processing

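Of 204 recomputed values, 149 kept their call and moved by no more than their error, 46 moved further, and 9 changed side of 0 or tied with it, and the cause was not tested. The ratio of Calcr, whose interval included 0, also crossed 0 under some settings and is not among the 9. A minimum of 10 transcripts and leaving out the 1% largest cells moved none. The 12 ranks of clusters by thinned shares were counted apart from the 204, and all stayed the same. For the log2 level over the highest blank, a minimum of 50 transcripts gave 1.66 for Mc4r and 0.38 for Avpr1a in the control. All decoded molecules gave 1.79 for Mc4r, 1.13 for Ntsr1, -0.69 for Grpr and -0.0045 for Avpr1a there, the last a change of sign. Imaging plane 0 alone gave 1.07 for Ntsr1 in the control, and 1.13 for Ntsr1 and 0 for Grpr in the KO, a tie with the highest blank. The KO thinned to the control total gave 1.82 for Mc4r. For the log2 ratio of KO over control, a minimum of 50 gave 0.38 for Mc4r and 0.14 for Ntsr1, both changes of sign, 0.34 for Calcr and 1.19 for Brs3. All molecules gave -0.13 for Ntsr1, and plane 0 gave -0.014 for Mc4r and -0.044 for Ntsr1. Counts per cell volume, which keep the difference in depth, gave 1.91 for Mc4r, 1.81 for Ntsr1, 1.97 for Calcr, 1.85 for Avpr1a, 2.53 for Grpr and 2.86 for Brs3, and turned the sign of all that were below 0. Over the 4 pairings of single sides, the ratio ranged from -0.55 to 0.27 for Mc4r, from -0.69 to 0.21 for Ntsr1, from -0.61 to 0.02 for Calcr, from -0.63 to -0.032 for Avpr1a and from 0.087 to 0.80 for Grpr. The sides held brain cells alone, whereas the ratio they were compared with covered the whole section. With a minimum of 50, the control shares of the leading regions were 81.5% for Mc4r, 72.2% for Ntsr1, 45.3% for Calcr and 36.4% for Avpr1a. In the cluster that led in the KO, that minimum gave control levels of 10517 CPM for Mc4r, 1564 for Calcr and 708 for Grpr. Resolution 1.2 gave 12228 CPM in the control and 9977 in the KO for Mc4r, 3949 in the KO for Ntsr1, and 533 and 1236 for Brs3. Clustering with the receptors gave 2183 and 1940 CPM for Calcr, 1113 in the control for Avpr1a, 1049 and 1827 for Grpr and 1035 in the KO for Brs3. In that clustering the receptors were themselves features, so these levels are not independent of the grouping. The median cortical depth in the control was 0.518 and 0.554 on the 2 sides for Mc4r and 0.526 and 0.547 for Ntsr1, and 0.518 in the KO for Mc4r with all molecules. With the KO thinned to the control total, Brs3 lay at -0.66 and Grpr at 0.22 over the highest blank on the log2 scale, and their ratios were 0.89 and 0.60.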
